A study of Mus musculus with 59 samples.

Results

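Melan-a cells treated with agouti signaling protein (ASP) for 3 h were compared with untreated melan-a cells on 6 of the 59 arrays of the series, the 6 whose treated RNA is labelled as ASP at 3 h. Melan-a is an immortal line of pigmented melanocytes of C57BL6 origin, and both sides of the comparison are this line. The treated cells received recombinant murine ASP at 10 nM. The other groups received ASP at 10 nM for 1, 2, 3 or 4 days, or α-melanocyte stimulating hormone (α-MSH) at 100 nM for the same 5 times. On each array RNA of treated and of untreated cells was hybridised together, with the treated RNA in Cy5 on 3 arrays and in Cy3 on the other 3. Whether the untreated cells were harvested at matching times, and whether groups shared untreated RNA, is not given in the sources used here.

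ASP is the product of the agouti gene and is secreted in the hair follicle, where it binds the melanocortin 1 receptor of melanocytes. α-MSH activates that receptor, raises cyclic AMP and favours the synthesis of dark eumelanin. ASP opposes this, and its pulse during hair growth is what lays down the yellow pheomelanin band of agouti fur. The 3 h comparison is the earliest of those with ASP, and α-MSH was measured at 3 h as well.

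The values are log ratios of the 2 channels, read as treated over untreated, which is likely from the way the design is written but is not stated. Their scale is log2: the commonest values of an array lay 1 and 0.585 apart, the base 2 logarithms of ratios of small whole numbers. On the array with treated RNA in Cy5 of repeat 3, for instance, 1815 of 29409 probes read 0, 1039 read -1 and 709 read -0.585. Channel intensities were not used here, and no table given here pairs probe numbers with genes, so probes are called by number and the cell type could not be checked against its markers. Of the 38591 probes, between 32080 and 38223 had a value on a given array of this group, and 29409 had one on all 6. These 29409 were tested, each array centred on its own median.

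Before any comparison the arrays did not all behave alike. Dye bias was strong: as deposited, repeats 1, 2 and 3 (Cy5) had medians of -0.622, -0.807 and -0.24, whereas repeats 4, 5 and 6 (Cy3) had medians of 0.69, 0.245 and 0.35. Across the tested probes, the arrays of repeats 1 and 2 correlated at 0.74, and each ran opposite to the 3 Cy3 arrays (r between -0.72 and -0.5). The Cy5 array of repeat 3 stood apart, with r of 0.15 and 0.09 against the other 2 Cy5 arrays. It correlated at 0.23 with the Cy3 array of repeat 5, the only positive value among the 9 comparisons of opposite dyes. Its scaling also differed. On the Cy5 array of repeat 3 the commonest values were exact log ratios of small whole numbers. On the other 5 arrays the same spacings started from a constant other than 0. The constants fitted to repeats 1, 2, 4, 5 and 6 were -1.098, -1.476, 0.867, -0.133 and 0.988. The commonest values of these arrays were -1.098, -0.891, 1.452, 0.867 and 0.988. Whether this scaling bears on the results was not tested. These correlations are across probes of 1 comparison, and the probes are not independent replicates.

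The labels number the Cy5 arrays 1 to 3 and the Cy3 arrays 4 to 6 without saying which arrays came from the same biological replicate. They were joined in numerical order (1 with 4, 2 with 5, 3 with 6), so that replicates 2 and 3 each hold 1 of the arrays that stood apart. The 3 replicates so formed correlated with each other at 0.1, 0.17 and 0.12 across probes.

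Read as treated over untreated, many more probes were lower than higher in cells given ASP for 3 h. If the ratios run the other way on every array, every rise and fall given here, the named probes included, changes places and the sizes stay as they are. That all arrays share 1 orientation was assumed and not tested. With limma and 1 spread shared by all groups, 203 of 29409 probes (0.690%) were lower and 20 (0.0680%) were higher in treated cells at an adjusted p under 0.05. The 203 lower probes had a median log2 ratio of -1.01, which is 2.02-fold, and ranged from -1.87 to -0.45. The 20 higher probes had a median of 0.7, which is 1.63-fold, and ranged from 0.55 to 1.19. Over all tested probes the median was 0.03. Of the lower probes 107 changed by 2-fold or more and of the higher probes 7, against 177 and 41 among all tested. Fewer cells of a type and less RNA per cell cannot be told apart in such bulk RNA. The count rests on the pooled spread: limma called 2 probes, both lower, with the spread of the 15 ASP replicates and 0 with that of the 3 h replicates alone (smallest adjusted p 0.34, and 2529 probes at an unadjusted p under 0.05). In the fit over all groups 3417 probes, or 11.6%, were below 0.05 before adjustment. Over all tested probes the median SD over replicates was 0.29 at 3 h, compared with 0.4 for ASP at 1 d and 0.2 at 3 d. At 3 h it was 0.59 among the 203 lower and 0.34 among the 20 higher probes. The median SE that the pooled fit gave these sets was 0.22 and 0.16.

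The lower probes were low on 2 of the 6 arrays above all. Their median was -2.53 on the Cy5 array of repeat 3 and -2.41 on the Cy3 array of repeat 5. On the Cy5 arrays of repeats 1 and 2 it was 0.07 and 0.34, and on the Cy3 arrays of repeats 4 and 6 it was -0.94 and -0.41. The 2 arrays that correlated with each other across dyes were therefore the lowest. Over all tested probes the medians were 0.27, 0.33 and -0.01 on the Cy5 arrays of repeats 1, 2 and 3 and -0.26, -0.08 and -0.08 on the Cy3 arrays of repeats 4, 5 and 6. Against these, the lower probes stood a little below the rest on repeat 1 and level with it on repeat 2. For 170 of the 203, repeats 3 and 5 gave the 2 lowest values, as against 2677 of all 29409 tested. All 203 were below 0 on the array of repeat 3, but 87 and 77 were on those of repeats 1 and 2. On all 6 arrays 25 of the 203 were below 0, as against 178 of all 29409 tested. Averaged over the 4 arrays without repeats 3 and 5, the 203 had a median of -0.25. Of them 195 were below 0 and 7 lower by 2-fold or more, as against 11364 and 93 of all tested. The 203 had been chosen on a mean that takes in these 4 arrays.

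**Figure D1:**
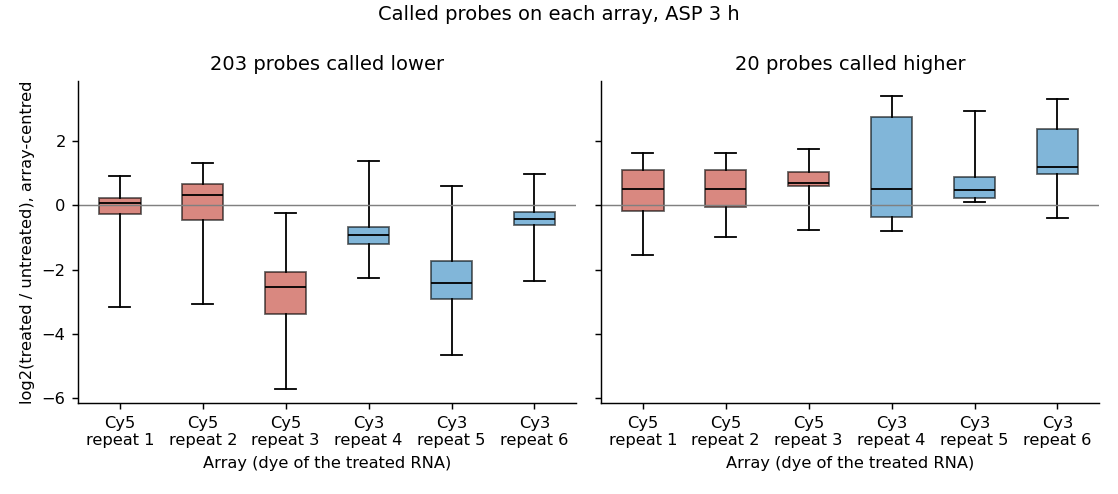
Centred log2 ratios of the 203 lower probes (left) and the 20 higher probes (right) on each of the 6 arrays of ASP at 3 h. Boxes span the quartiles with the median as a line, whiskers the full range; red marks treated RNA in Cy5 and blue in Cy3. The lower probes have medians of -2.53 and -2.41 on repeats 3 and 5 and between -0.94 and 0.34 on the other 4 arrays.

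The same pattern was seen before any test was applied. At a centred log2 ratio below -2, a bound chosen after the values were seen, the array of repeat 3 held 900 probes and that of repeat 5 held 418. They shared 291, which is 32.3% of the former and 69.6% of the latter. In the other 8 combinations of a Cy5 with a Cy3 array, between 0 and 3 probes were below -2 on both. The Cy3 arrays of repeats 4 and 6 held 11 and 39 such probes, so that few could be shared with them. The Cy5 arrays of repeats 1 and 2 held 769 and 1202, and they shared 0 and 2 with repeat 5. In the upward direction repeats 3 and 5 shared 4 probes above 2, out of 147 and 456. Downward values were thus shared by these 2 arrays across opposite dyes, and upward values hardly were. What sets the 2 arrays apart was not tested, and the labels give both the same treatment and time.

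**Figure D2:**
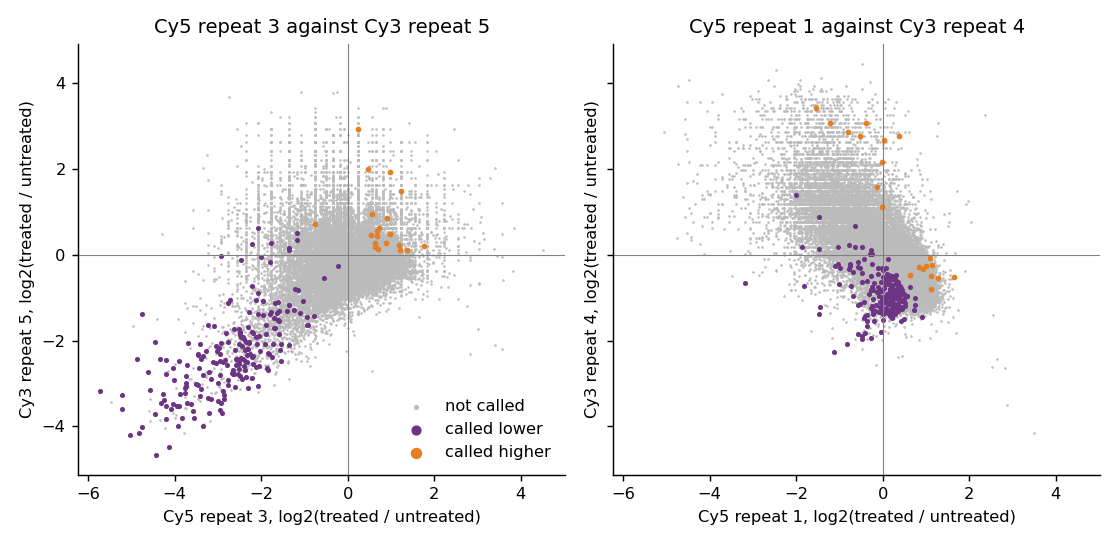
Centred log2 ratio of each of 29409 probes on the Cy5 array of repeat 3 against the Cy3 array of repeat 5 (left) and on the Cy5 array of repeat 1 against the Cy3 array of repeat 4 (right). Purple points are the 203 lower probes, orange the 20 higher and grey all others. On the left the purple points extend along the diagonal below -2 on both axes (r of 0.23 over all points), while on the right they lie around 0 of the horizontal axis and r is -0.72.

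On that reading probe 1773435_1 fell the most, and it was the steadier of the 2 deepest falls. It read -0.82, -0.39 and -2.99 on the Cy5 arrays of repeats 1, 2 and 3, and -2.07, -3.4 and -1.56 on the Cy3 arrays of repeats 4, 5 and 6. All 6 values were below 0, with repeats 3 and 5 the lowest. The mean log2 ratio was -1.87 (SD 0.41 over 3 replicates, SE 0.28, limma adjusted p = 0.009), which is 3.66-fold lower. Over the 4 arrays without repeats 3 and 5 it averaged -1.21, where limma no longer called it (adjusted p = 0.57). Across 20 alternative settings its log2 ratio lay between -2.14 and -1.21 and it passed in 14, with adjusted p between 3.8e-06 and 0.57.

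Probe 1795728_1 had the next deepest fall, at -1.83 (SD 0.89, n = 3, SE 0.37, limma adjusted p = 0.03). It read -4.42 and -4.67 on the arrays of repeats 3 and 5. On repeats 1, 2, 4 and 6 it read -0.22, 0.17, -1.39 and -0.45. The 2 arrays that stood apart were the lowest by far, and repeat 4 was the next. The other 4 arrays averaged -0.47 (limma adjusted p = 0.98 without repeats 3 and 5), and the probe passed in 10 of 20 alternatives, with adjusted p between 0.0047 and 0.98.

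The 20 higher probes had more even medians over the arrays, but single probes varied in sign. The medians were 0.51, 0.52 and 0.71 on the Cy5 arrays of repeats 1, 2 and 3, and 0.53, 0.48 and 1.19 on the Cy3 arrays of repeats 4, 5 and 6. All 20 were above 0 on the array of repeat 5 and 19 on each of repeats 3 and 6, but 12, 14 and 10 on repeats 1, 2 and 4. On all 6 arrays 2 of the 20 were above 0, as against 227 of all tested. For 13 of the 20, the mean over the Cy5 arrays and that over the Cy3 arrays had the same sign, compared with 196 of the 203 lower probes and 6379 of all tested. Choosing probes on the mean over both orientations by itself favours such agreement in sign. Without repeats 3 and 5 the median of the 20 was 0.82, and all 20 averaged above 0, as against 18045 of all 29409 tested. The 20 had been chosen on a mean that takes in these 4 arrays, and limma called none of them in that smaller set.

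On the same reading probe 1776529_1 rose the most, by 1.19 (SD 0.87, n = 3, SE 0.27, limma adjusted p = 0.047), which is 2.29-fold. On the Cy5 arrays it read -1.54, -0.99 and 0.98, and on the Cy3 arrays 3.43, 1.94 and 3.34, so that all Cy3 values lay above all Cy5 values. Probe 1770016_1 rose by 1.12 (SD 0.34, n = 3, SE 0.25, limma adjusted p = 0.037), which is 2.17-fold, and showed the same split. On the Cy5 arrays it read -0.51, -0.48 and 0.46, and on the Cy3 arrays 2.76, 2.01 and 2.44. In both probes the Cy5 arrays of repeats 1 and 2 were below 0, that of repeat 3 was above it, and every Cy3 array was higher still. On the array constants that take in most values, 3 of the 6 values of each of these probes were ratios of whole numbers up to 8, as against 0 for both of the deepest falls. At least 3 such values were found in 5889 of all 29409 tested probes (20%), in 6 of the 20 higher and in 4 of the 203 lower probes. With the Cy5 arrays alone, after removal of the dye effect at later ASP times, the log2 ratios were 0.1 for 1776529_1 and -0.33 for 1770016_1 (limma adjusted p = 0.85 and 0.37). The first passed in 4 and the second in 7 of 19 alternatives, with adjusted p between 0.00011 and 0.85 and between 6.3e-06 and 0.75.

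**Figure D3:**
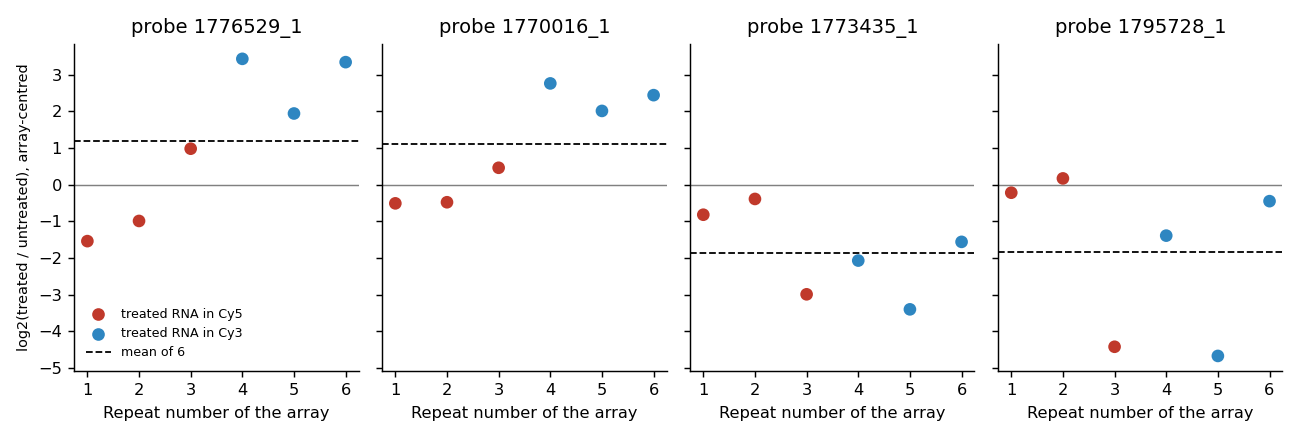
Centred log2 ratio of the 2 probes with the largest rise and the 2 with the largest fall on each of the 6 arrays, in red with treated RNA in Cy5 (repeats 1 to 3) and in blue with it in Cy3 (repeats 4 to 6); the dashed line is the mean of the 6. The rising probes split by dye, with all Cy3 values at 1.94 or more and no Cy5 value above 0.98, and the falling probes are lowest on repeats 3 and 5.

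How many probes passed depended on which arrays were taken to form a replicate. Over the 6 possible ways to join 3 Cy5 with 3 Cy3 arrays, the means are identical and only the spread changes. With repeats 3 and 5 in different replicates, limma called 223 (the joining used here), 183, 37 or 4 probes. With repeats 3 and 5 joined in 1 replicate it called 1 probe, in both joinings that do so. Without those 2 arrays it called 2. Of the 203 lower probes, 154 were still called with 1-5, 2-4 and 3-6 joined, and 1 without the 2 arrays. Leaving out a replicate gave 704 calls without replicate 1, whose arrays (repeats 1 and 4) did not stand apart, 8 without replicate 2 and 1 without replicate 3. Of the 8, 7 were higher, a balance opposite to that of the full set.

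**Figure D4:**
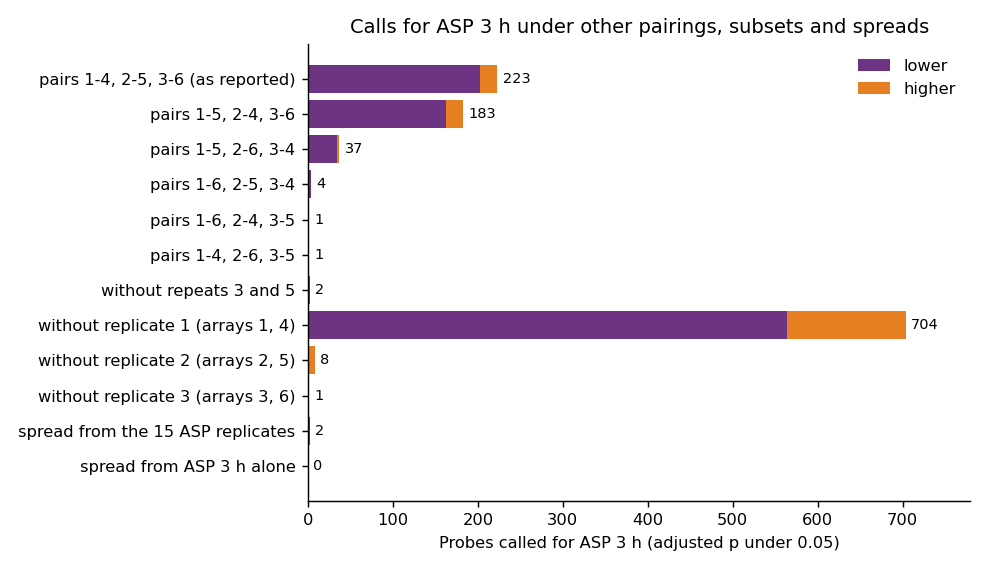
Number of probes called for ASP at 3 h at an adjusted p under 0.05 (bar length; purple lower, orange higher, total printed at the end) for each way of joining arrays, for subsets of arrays and for other estimates of the spread. The count is 223 as reported, 1 where repeats 3 and 5 form a replicate, and 704 without replicate 1.

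Correction for dye did not remove the difference between the orientations. The Cy5 arrays of repeats 1, 2 and 3 correlated at 0.66, 0.62 and 0.22 with the dye effect of each probe measured at the later ASP times, and the Cy3 arrays of repeats 4, 5 and 6 at -0.66, -0.46 and -0.53. The array of repeat 3 thus carried the weakest trace of it. With only the Cy5 arrays, after removal of that dye effect, limma called 4163 probes higher and 1802 lower. With only the Cy3 arrays it called 1794 higher and 3360 lower. Higher calls were thus the more numerous with the Cy5 arrays and lower calls with the Cy3 arrays. The median over all tested probes was itself 0.13 with Cy5 alone and -0.11 with Cy3 alone. In these fits 3 single arrays stood as the replicates of ASP at 3 h. The shared spread came mostly from averages of 2 arrays, so that the counts may be too high. Of the 203 lower probes 82 were called lower with Cy5 alone and 177 with Cy3 alone, and of the 20 higher probes 12 and 17 were called higher. The median of the 203 was -0.9 and -1.23 in the 2 orientations.

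Other features of the called probes were set beside those of all tested probes, without a test. Of the 203 lower probes 90.1% had a value on all 59 arrays, compared with 63.6% of the tested and 50% of the 20 higher probes. On the array of repeat 3, values within 6e-04 of the log2 of a ratio of whole numbers up to 8 made up 34.5% of the tested probes. There they made up 7.39% of the lower and 45% of the higher probes, the latter being 9 of 20. With a constant fitted to each array, the shares over the 6 arrays ran from 9.92% to 34.5% of the tested probes. On each array the share was smaller among the lower probes, the smallest being 3.45% on repeat 1. The higher probes ran from 5% to 45%, below the tested share on repeat 2 (5% against 16.5%) and level with it on repeats 1 and 5. The constants are not unique, and the shares move a little with them. The dye effect at later ASP times had a median of 0.06 among the lower, 0.14 among the higher and 0.02 among all tested probes.

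The next question was whether the early profile resembled the later ones. The 203 lower probes stood at a group median of 0.23 after 1 d of ASP, 0.12 after 2 d, 0.11 after 3 d and 0.09 after 4 d, against -1.01 after 3 h. Their medians in single replicates spanned -1.5 to -0.43 at 3 h, and at the later times they lay between -0.15 and 0.64. The 20 higher probes had medians of 0.1, -0.09, 0.07 and 0.11 at the later times, against 0.7 at 3 h. Both sets had been chosen on their 3 h values, which places that group farthest from 0. On the 53 arrays of the other groups, the median of the lower probes ranged from -1.25 to 1.41. The lowest values were -1.25 and -0.64 on the Cy3 array of repeat 5 and the Cy5 array of repeat 3 of α-MSH at 4 d. These 2 arrays were joined in 1 replicate, unlike repeats 5 and 3 of ASP at 3 h. The highest value was on the Cy5 array of repeat 1 of ASP at 1 d, where the median over all tested probes was itself 0.82.

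**Figure D5:**
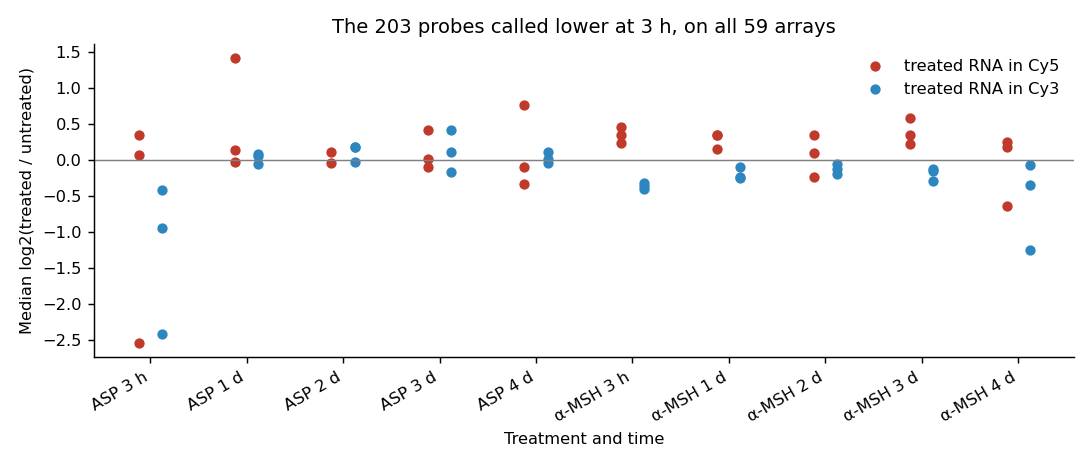
Median centred log2 ratio of the 203 probes called lower at 3 h of ASP, on each of the 59 arrays (1 point an array), by treatment and time; red points have treated RNA in Cy5 and blue in Cy3. At 3 h of ASP 2 arrays lie at -2.53 and -2.41 and the other 4 between -0.94 and 0.34, and among the other 53 arrays the lowest is at -1.25.

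Tested directly, ASP at 3 h differed from the mean of the 4 later ASP times in 2060 of 25856 probes (7.97%) in limma, 1489 lower and 571 higher at 3 h. The 1489 had a median of -0.45 at 3 h and 0.42 at the later times, and the 571 had 0.31 and -0.4. Both sets were chosen by this difference, which by itself draws the 2 medians apart, and over all 25856 probes the medians were 0.02 and 0.02. Probe 1773435_1 differed by -1.81 (SE 0.31, limma adjusted p = 0.00059), with later means between -0.14 and 0.03. Probe 1795728_1 differed by -2.07 (SE 0.41, limma adjusted p = 0.0023), with later means between -0.04 and 0.55. Probe 1770016_1 differed by 0.93 (SE 0.28, limma adjusted p = 0.037), with later means from -0.09 at 2 d to 0.62 at 3 d. Probe 1776529_1 had too few values at 3 d for this test. The named probes had been picked for the size of their 3 h ratios, which by itself favours a difference from the later times. Without repeats 3 and 5 the count was 305, with 175 lower and 130 higher, and it was 466 without replicate 3 and 1077 without replicate 2. The group at 2 d has 5 arrays, so that 1 of its replicates is a single array. The comparison also takes in changes over the later days, and shared untreated RNA was not tested.

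Against α-MSH at the same 3 h, ASP differed in 0 of 29409 probes (0%) in limma, with a smallest adjusted p of 0.068 and 1655 probes (5.63%) at an unadjusted p under 0.05. The median of the 203 lower probes was -0.01 with α-MSH, between -0.07 and 0.05 in its 3 replicates, and that of the 20 higher probes was 0.05. Probe 1773435_1 stood at 0.03 ± 0.24 (SD, n = 3) with α-MSH, and the difference of -1.9 (SE 0.4) had a limma adjusted p of 0.68. Probe 1795728_1 stood at -0.1 ± 0.1, a difference of -1.73 (SE 0.53, limma adjusted p = 0.68). Probes 1776529_1 and 1770016_1 stood at 0.26 ± 0.11 and 0.05 ± 0.39 with α-MSH, 0.93 (SE 0.39) and 1.07 (SE 0.36) below their values with ASP, and did not pass (limma adjusted p = 0.78 and 0.7). A difference that misses the threshold does not show equal responses. The doses differed, and the median SE of the difference, 0.27 on the log2 scale, limits what could be seen. Without ASP replicate 1 limma called 22 probes, all lower with ASP.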

How the data were processed

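The authors' deposited value table holds log2 ratios of the 2 channels of each 2-colour array. Per the labels' protocols, total RNA was column-purified and labelled indirectly with Cy3 and Cy5. Each array title carries the words low pmt, probably a scanner setting, which the labels do not explain. Beyond that, no source used here says what was done for scanning, background correction and normalization. The median of each array was subtracted, a dye effect per probe, estimated over all arrays of its drug, was removed, and the 2 arrays taken as a dye-swap pair were averaged. Pairs were formed in order of repeat number for ASP and of database number for α-MSH, since the labels state none. For α-MSH this joined repeats 3 and 4, 1 and 5, and 2 and 6 at 3 h, and 1 and 4, 3 and 5, and 2 and 6 at 4 d. Joined as α-MSH at 4 d was, ASP at 3 h gave 1 call. The 30 resulting replicates of the 10 groups entered a single fit in R 4.3.3 (limma 3.58.1, lmFit and eBayes), with Benjamini-Hochberg adjustment over all probes tested and a threshold of 0.05. A probe was tested where all 6 arrays of ASP at 3 h had a value, and in contrasts with later times or α-MSH where at least 2 replicates of each other group did. No script used intensities. Checks ran on simulated data.

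Probes were named by rule: the 2 called probes with the largest rise and the 2 with the largest fall, of the same sign in all 3 replicates. The arrays, the tests and the rule were chosen with earlier results of these data known. Gene lists drawn up for pigment, melanocortin and early response genes could not be used, since no table given here pairs probes with genes. P-values measure the spread between these arrays, whose number limits the precision. The alternatives are other centring, dye correction, filters, spreads, units of replication and pairings, and subsets of arrays. The further pairings and the subset without the 2 arrays that stood apart were added after the data were seen.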

Additional observations from a re-analysis of the deposited data

Results flagged for a closer look

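The 20 higher probes had a median of 1.19 on the Cy3 array of repeat 6, far from the other 5 arrays of ASP at 3 h, which lay between 0.48 and 0.71. Chance gives such a gap in about 1 in 20 measures and 9 were examined, so that a single one is near what chance gives. The probes had also been chosen for being high on these arrays. The response to ASP at 3 h differed from the mean of the later times in 2060 probes in limma. Among the named probes the difference, 3 h minus later, was -1.81 for 1773435_1, -2.07 for 1795728_1 and 0.93 for 1770016_1. Their choice by the size of the 3 h ratio by itself favours such differences.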

How the results depend on the processing

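The 223 calls at 3 h became 572 without centring, 519 with the dye bias of each array removed by loess, 601 when only probes measured on each of the 59 arrays were tested and 617 when single arrays were fitted with pair as random block. They became 2 with the spread of the ASP replicates and 0 with that of the 3 h replicates, 37, 1, 1 and 4 with arrays joined as 1-5, 2-6, 3-4, as 1-6, 2-4, 3-5, as 1-4, 2-6, 3-5 and as 1-6, 2-5, 3-4, 2 without repeats 3 and 5, 5965 with Cy5 and 5154 with Cy3 arrays alone, and between 1 and 704 with 1 replicate left out. The share of higher calls, 8.97%, was 87.5% without replicate 2, 69.8% with Cy5 arrays alone, 34.8% with Cy3 arrays alone, 22% with the pair as a random block and 19.9% without replicate 1.

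The 2060 probes that differed from the later times became 1175 with the spread of the ASP replicates, 4959 with Cy5 and 6837 with Cy3 arrays alone, 305 without repeats 3 and 5, and between 466 and 1934 with 1 replicate left out. Against α-MSH the count of 0 became 1 without centring, with loess, in the set measured on every array and with 1-6, 2-4, 3-5 or 1-4, 2-6, 3-5 joined, 2 in both fits of single arrays, 13 with Cy5 and 80 with Cy3 arrays alone, and between 0 and 22 with 1 ASP replicate left out. The cause of these shifts was not tested beyond the arrays left out. Counts with Cy5 or Cy3 arrays alone set single arrays beside averages of pairs and may be too high. Probe 1770016_1 reversed to -0.33 with Cy5 arrays alone; no other named probe reversed.

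With the pair number as a replicate block, 283 probes were called at 3 h, 1988 against the later times and 0 against α-MSH. The numbers mark no stated pairing: deviations of same-numbered ASP replicates correlated between -0.33 and 0.28 across probes, above 0.1 in 3 of 12 comparisons with 3 h. Signal over background could not be judged without intensities.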
